A study of Mus musculus with 8 samples.

Results

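Deep intragenic regions are stretches of open chromatin that lie inside a protein-coding gene and far from any gene's start or end. They were mapped in natural killer (NK) cells by ATAC-seq, an assay in which a transposase cuts accessible DNA. Overlapping peaks of the 8 libraries (sharing 1 bp or more) formed 55946 merged regions, of which 50044 had a peak in 2 or more libraries and are called consensus regions. Of these, 4042 (8.08%) lay inside a protein-coding gene and more than 50 kb from every protein-coding gene start or end in the mouse build mm10, and they are the deep intragenic regions. The listing of a peak in 2 or more libraries was part of this choice, while peak scores and the genotype were not. A region listed in 1 genotype only entered through the lists of that genotype.

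The 8 libraries came from spleens of 8 mice at steady state, 4 MUT mice (replicates 26, 27, 28 and 29) and 4 WT mice (replicates 4, 5, 6 and 7). MUT mice carry alanine instead of serine at positions 303 and 307 of HSF1, the transcription factor that drives the heat shock response, and WT mice have the unchanged protein. Phosphorylation of these serines is known to restrain HSF1. NK cells were enriched with DX5 beads and sorted as CD49b+ and CD3e-, and 200000 cells of each mouse were used. The sources used here give no strain, sex or age of the mice and not how the mutation was introduced, and any further difference between the 2 sets of mice cannot be told apart from the genotype.

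An ATAC-seq peak far inside a gene usually marks an enhancer, a silencer, a binding site for the looping factor CTCF or an internal promoter. Long genes of lymphocytes often carry their enhancers in their own introns, while the longest genes of the mouse are mostly genes of neurons. NK cells depend on T-box, RUNX and ETS family transcription factors.

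The libraries listed between 44333 and 49627 peaks in MUT and between 42695 and 46102 in WT, and between 3396 and 3768 of them in MUT and 3210 and 3432 in WT lay in deep intragenic regions. Read depth is unknown because the files hold no counts. Of the marker genes, 10 of 10 NK genes had a peak within 1 kb of their start or end in all 8 lists, against 6 of 10 T cell, 1 of 8 B cell, 2 of 6 myeloid and 2 of 6 basophil and mast cell genes. Among the genes with a peak there in no list were Cd8a, Cd8b1, Adgre1, Csf1r, Csf3r, Lyz2, Cpa3 and Ms4a2, while Cd4, Themis and 6 B cell genes had one in some lists. Fewer cells of a type and a weaker signal per cell cannot be told apart in such bulk libraries. The consensus regions listed in any 2 libraries had a Jaccard index (shared regions over all regions of both) of 0.824 to 0.884.

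Some deep intragenic regions lie at annotated transcript starts. A start window, 250 bases before to 50 after an annotated RefSeq start (GRCm38.p6), overlapped 117 of 3888 deep regions, the other 154 being on a chromosome with no start in the table. The sequences below are the 250 bases upstream of 6 such internal starts, 5′ to 3′ on the strand of the transcript. St7, named for suppression of tumorigenicity, and Dock10, a guanine exchange factor gene, are shown because their regions had the highest score percentiles among internal starts of named protein-coding genes. Pcgf5, a Polycomb subunit, shows a CpG-rich start, Runx1, a master factor of blood cells, the second widest of all deep regions, and Foxp1, a forkhead factor that keeps lymphocytes quiescent, the gene with the most deep regions. Kcnq1ot1 is the imprinted long non-coding RNA that runs against Kcnq1 from within it. Capitals mark TGTGGT, the core read by RUNX factors, and CCGGAA, the core read by many ETS factors, on either strand.
St7: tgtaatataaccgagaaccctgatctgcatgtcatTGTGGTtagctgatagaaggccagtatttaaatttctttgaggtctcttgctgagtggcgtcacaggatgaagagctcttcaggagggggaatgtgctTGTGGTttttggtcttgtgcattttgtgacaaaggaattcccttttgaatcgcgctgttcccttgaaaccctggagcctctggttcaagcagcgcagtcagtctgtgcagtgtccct
Dock10: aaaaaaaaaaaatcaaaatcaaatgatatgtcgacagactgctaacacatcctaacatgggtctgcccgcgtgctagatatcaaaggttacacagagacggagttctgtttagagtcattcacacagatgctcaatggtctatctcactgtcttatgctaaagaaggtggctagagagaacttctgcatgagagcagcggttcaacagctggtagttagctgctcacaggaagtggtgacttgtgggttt
Pcgf5: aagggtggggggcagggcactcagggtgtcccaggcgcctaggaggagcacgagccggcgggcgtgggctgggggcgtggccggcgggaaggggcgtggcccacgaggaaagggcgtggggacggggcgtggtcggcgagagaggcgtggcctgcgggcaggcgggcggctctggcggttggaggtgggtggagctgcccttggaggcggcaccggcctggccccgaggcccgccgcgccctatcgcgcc
Runx1: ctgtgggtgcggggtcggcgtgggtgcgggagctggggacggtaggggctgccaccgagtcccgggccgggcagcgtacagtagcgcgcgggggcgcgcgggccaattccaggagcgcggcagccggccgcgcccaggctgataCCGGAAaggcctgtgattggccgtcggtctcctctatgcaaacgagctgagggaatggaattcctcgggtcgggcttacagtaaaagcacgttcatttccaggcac
Foxp1: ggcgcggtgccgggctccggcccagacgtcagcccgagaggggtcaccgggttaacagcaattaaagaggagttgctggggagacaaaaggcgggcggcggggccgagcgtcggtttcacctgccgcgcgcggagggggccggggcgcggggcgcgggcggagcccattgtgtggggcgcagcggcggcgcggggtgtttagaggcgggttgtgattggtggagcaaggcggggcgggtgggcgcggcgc
Kcnq1ot1: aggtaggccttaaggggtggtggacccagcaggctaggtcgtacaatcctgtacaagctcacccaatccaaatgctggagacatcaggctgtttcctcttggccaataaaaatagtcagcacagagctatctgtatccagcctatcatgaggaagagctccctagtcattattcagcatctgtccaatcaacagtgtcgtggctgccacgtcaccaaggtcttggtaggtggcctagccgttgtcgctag
The St7 bases are at chr6:17748920-17749169 and the Dock10 bases at chr1:80665353-80665602. The Pcgf5 bases are at chr19:36409498-36409747 and the Runx1 bases at chr16:92697330-92697579. The Foxp1 bases are at chr6:99028299-99028548 and the Kcnq1ot1 bases at chr7:143296548-143296797, all in GRCm38.p6, with St7 and Pcgf5 on the plus strand and the others on the minus strand.

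The printed stretches differ widely in base composition. G and C made up 78.0% of the Pcgf5 bases, with 28 CpG dinucleotides, and 74.0% of the Foxp1 bases, with 34 CpG. The Runx1 bases held 67.6% and 27 CpG. The Dock10 bases held 43.2% and 5 CpG, the St7 bases 47.2% and 5 CpG, and the Kcnq1ot1 bases 51.2% and 5 CpG. All 6 regions had a peak in all 8 lists, and all were chosen among starts that lie in deep regions.

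Score percentile, the rank of a peak's score among all peaks of its own list with 100 as the highest, placed these starts far apart. The value of a region is the mean over its peaks in all lists, where a list with several peaks in a region counts once for each peak. It was 98.4 for St7, 98.0 for Dock10, 96.4 for Pcgf5, 88.9 for Kcnq1ot1, 46.5 for Runx1 and 12.7 for Foxp1. Scores were assigned by the authors to each peak, on a scale that the sources used here do not describe. In the Foxp1 start region the summed peak length was 324, 382, 497 and 275 bp in the MUT libraries and 538, 725, 438 and 700 bp in the WT libraries, and the 2 sets overlapped.

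Internal starts as a group were wider and ranked higher than the other deep regions. Deep peaks at a start had a median width of 522 ± 32.2 bp, against 362 ± 6.31 bp for the other deep peaks of the same libraries (SD, n = 8 libraries). The median score percentile was 57.0 ± 1.77 at starts and 44.4 ± 1.41 elsewhere, and among the upper 50% of each list this difference turned to -1.15 points. Both differences had the same sign in 8 of 8 libraries (exact two-sided sign-flip test over libraries, p = 0.00781, the smallest it can give, adjusted p = 0.0112 over 10 within-library comparisons). These tests of starts were added after values had been seen. A wider region overlaps a start window more easily, so width was in part set by how regions were assigned to starts. The part of this in the differences of width, score and recurrence was not tested. A peak in all 8 lists was present at 99 of the 117 regions (84.6%), against 61.1% of the other deep regions. None of the 117 was listed in all MUT and no WT libraries, or the reverse, patterns that 1.01% and 0.297% of all deep regions had.

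Most starts far inside genes had no deep region. Of the annotated start windows inside deep gene bodies, 109 overlapped a region with a peak in all 8 lists, 15 a region with peaks in 2 to 7 lists and 944 none. The median window with a peak in all 8 lists held 59.7% G and C and 16 CpG. The median window with none held 47.0% and 4 CpG, and the median over all 32851 windows of the genome was 52.7% and 7 CpG. Of the 109 open windows, 82 belonged to the host gene itself and 27 to another gene. Long non-coding RNAs started in 27 of the 109 open windows and in 630 of the 944 without a region.

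Motif letters were counted in the same 300-base windows, on both strands. The GC box GGGCGG was in 54.1% of the 109 open windows, 9.96% of the 944 without a region and 35.7% of all windows. The ETS core CCGGAA was in 11.0%, 5.30% and 14.9%, and the RUNX core TGTGGT in 15.6%, 18.1% and 16.8%. The T-box core TCACACC was in 3.67%, 4.66% and 3.98%. The TATA box TATAAA was in 6.42%, 18.9% and 13.6%, and the heat shock element core GAANNTTC, the letters that HSF1 reads, in 4.59%, 10.8% and 7.86%. Of these motifs, the GC box differed most between the open windows and those without a region, and a match in letters is not a bound site. Only 1 annotated microRNA lay in a deep region, Mir3075 in Zmiz1, in a region at the 57.5th percentile with a peak in all 8 lists.

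Deep gene bodies were sparsely open. They spanned 360 Mb and held 11.2 regions per Mb. Shallow intragenic regions, which lie in gene bodies more than 1 kb but no more than 50 kb from a gene end, numbered 17301 at 27.5 per Mb, and intergenic deserts, more than 50 kb from any coding gene, held 4355 at 4.33 per Mb. Per library, deep gene bodies had 9.58 ± 0.458 peaks per Mb, shallow ones 23.8 ± 1.08 and deserts 3.68 ± 0.181 (SD, n = 8 libraries). The density in deep bodies was below that in shallow bodies by 14.3 ± 0.644 peaks per Mb and above that in deserts by 5.91 ± 0.281 in 8 of 8 libraries each (exact sign-flip test, p = 0.00781, adjusted p = 0.0112 for both).

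Score and width of deep peaks were compared with the same classes. Their median score percentile was 44.8 ± 1.29, against 43.5 ± 0.769 in shallow bodies and 47.6 ± 1.08 in deserts (SD, n = 8). The gap to shallow peaks was 1.26 points and positive in 7 of 8 libraries (exact sign-flip test, p = 0.0156, adjusted p = 0.0174), and it missed the threshold when lists were trimmed to the same number of peaks (0.385 points, adjusted p = 0.258) or beyond 100 kb (0.332 points, adjusted p = 0.531). The gap to desert peaks was -2.79 points and negative in 8 of 8 libraries (exact sign-flip test, p = 0.00781, adjusted p = 0.0112). Median widths were 366 ± 6.80 bp in deep bodies, 365 ± 5.89 bp in shallow ones and 370 ± 6.89 bp in deserts. The difference of 0.625 ± 1.90 bp from shallow peaks did not pass the exact sign-flip test (p = 0.414), and its sign turned under several alternatives.

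Most deep regions recurred. A peak was present in all 8 lists for 2495 of 4042 (61.7%), against 64.4% of shallow, 61.7% of desert and 84.7% of gene-end regions. Another 346 had a peak in 2 lists and 310 in 7 lists. Regions in 2 lists had a median score percentile of 15.1 and a median width of 255 bp, while those in all 8 had 54.2 and 531 bp. These widths are of merged regions, so they can grow with the number of lists that hold a peak. Near the distance limit, 469 regions lay 50 to 55 kb and 535 lay 45 to 50 kb from the nearest gene start or end, with median percentiles of 36.0 and 38.3.

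The highest ranked recurrent regions sat in genes of varied function. The region in Lhfp (chr3:53185240-53186129) had a mean percentile of 99.7, as did the one in Itsn1, an endocytic scaffold (chr16:91825762-91826483). Oxr1, an oxidation resistance gene, had one at 99.6, Ssbp2 one at 99.5, Btbd9 and Hpse2 one each at 99.4, and Sorl1, a sorting receptor, one at 99.2. Ube2e2, Slc9a9 and Nsd3, an H3K36 methyltransferase gene, had regions between 99.1 and 99.2. In the Lhfp region the peak length was 879, 865, 710 and 743 bp in the MUT libraries and 806, 887, 871 and 825 bp in the WT libraries, and the 2 sets overlapped. None of these 10 regions held an annotated start. The widest recurrent regions were in Cdyl, a chromodomain gene (1918 bp), and Runx1 (1825 bp), both at annotated starts. Elmo1, a Rac activator (1798 bp), Asap1 (1746 bp) and Slc8a1, a sodium-calcium exchanger gene (1608 bp), followed. These are widths of merged regions, and in Slc8a1 the summed peak length was 243 to 1145 bp per library.

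Host genes were few. Of 21887 protein-coding genes, 2304 had a deep body and 976 of these held at least 1 deep region. The median host held 2, 323 hosts held 1, and the 104 hosts with 10 or more held 1529 of the 4042 regions together. Hosts had a median deep body of 107 kb and the 1328 genes without a region one of 52.2 kb. Predicted genes, which are not named here, were 8 of the hosts with 22 regions.

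Foxp1 held 53 deep regions, more than any other gene, at 107 per Mb of its 497 kb deep body. Outer starts are the annotated starts of a gene no more than 50 kb from any protein-coding gene start or end. They can thus also lie inside the gene. The outer starts of Foxp1 in the table had no peak in any list, while 2 of its 53 regions lay at internal starts. Its summed peak length was 18734, 22422, 20016 and 19228 bp in the MUT libraries and 18414, 19405, 20452 and 18600 bp in the WT libraries. These values overlapped, and limma gave a log2 difference of -0.0033 ± 0.038 (SE, adjusted p = 0.99).

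**Figure D1:**
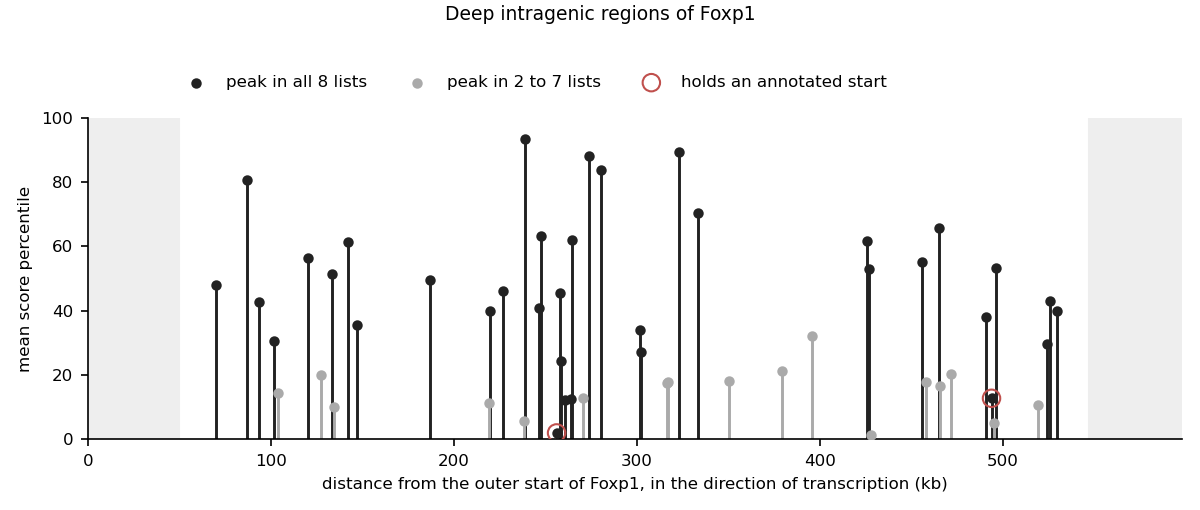
Mean score percentile (vertical axis, 0 to 100) of the 53 deep regions of Foxp1 by distance from the gene start in kb (horizontal axis). Black stands for a peak in all 8 lists (36 regions), grey for 2 to 7 lists, red circles for the 2 regions at annotated starts, and shaded ends for the 50 kb next to a gene end. The regions spread over the whole deep body, and the grey ones have low percentiles.

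Snx29, a sorting nexin gene, followed with 33 deep regions, Gse1, whose protein is found in histone deacetylase complexes, with 27, and Pde4d, a cyclic AMP phosphodiesterase, and Wwox, an oxidoreductase gene at a fragile site in humans, with 26 each. Arid1b, a subunit of the BAF remodelling complex, and Nav2, a cytoskeletal regulator, held 23 each, and Fyn, a Src family kinase of NK and T cells, and Arhgap26 held 22 each. Nrxn3, a synaptic adhesion gene, and Ttc28 held 21 each, and Iqsec1, an exchange factor of ARF GTPases, held 20. Length did not set these numbers alone, since Nrxn3 had 13.9 regions per Mb in a deep body of 1512 kb and Fyn had 230 per Mb in one of 95.6 kb.

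Among hosts with 5 or more deep regions, the densest were Rasa3 with 482 per Mb, Rapgef1 with 339, Lrrfip1 with 312, Itpk1 with 303 and Abtb2 with 269. Rasa3 restrains Ras and Rap GTPases and Rapgef1 activates Rap. The deep bodies of these 5 genes were short, between 10.4 kb and 52.1 kb. The genes with the longest deep bodies and no deep region were Ptprd, a receptor phosphatase of neurons (2171 kb), Lrp1b (1958 kb), Lsamp, a neuronal adhesion gene (1897 kb), Pcdh15, a protocadherin of sensory hair cells (1454 kb), and Dpp10 (1414 kb). The most crowded stretches of 25 kb held 11 deep regions each, in Iqsec1 and in Pip4k2a, a lipid kinase gene that was named after its values were seen.

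**Figure D2:**
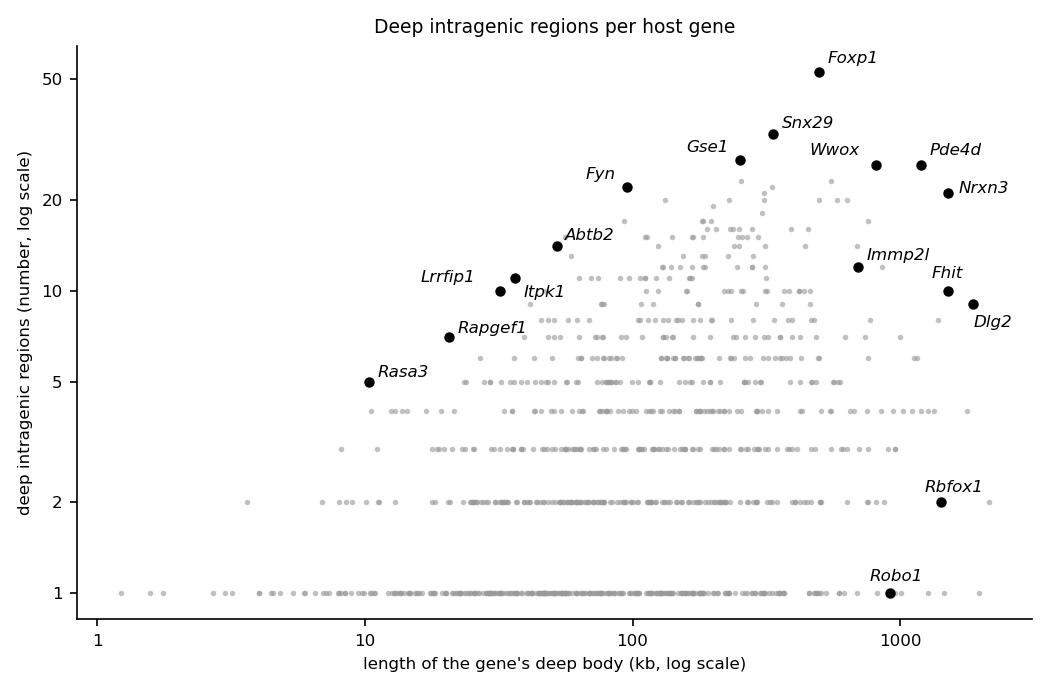
Number of deep intragenic regions (vertical log axis) against the length of the deep body in kb (horizontal log axis) for the 976 host genes, 1 point per gene, with named genes in black. Foxp1 stands at the top with 53 regions, Rasa3 reaches 5 in a deep body of 10.4 kb, and Robo1 holds 1.

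Gene groups differed in how densely their deep bodies were open. All gene lists were chosen with earlier results of these data known, and their densities were not tested. The 29 lymphocyte transcription factor genes with a deep body held 233 deep regions, 50.5 per Mb, against 11.2 per Mb over all genes. Besides Foxp1 these were led by Rora, an NK and innate lymphoid factor, and Zfhx3 with 20 each, Hivep3 with 18, Runx2 with 17 and Tox, a factor of NK and T cell development, with 16. The 52 signalling genes held 326, 32.7 per Mb. Besides Pde4d, Fyn and Arhgap26 these were led by Prkca and Ripor2 with 20 each and Prkch with 17. Both Prk genes encode protein kinase C isoforms. The 37 chromatin regulator genes held 131, 37.7 per Mb. Besides Arid1b these were led by Hdac4 with 15, Rere with 14, Chd7 with 9 and Hdac9 and Ncoa2 with 8 each. Of these genes, 24 of 29, 43 of 52 and 18 of 37 held a deep region, so the median gene held 60.6, 29.5 and 0 per Mb. In these lists a peak in all 8 libraries was present for 64.8%, 63.8% and 73.3% of the regions.

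The 72 neuronal and giant genes were nearly bare. They covered 73.6 Mb of deep body and held 171 deep regions, 2.32 per Mb, in 33 of the 72. Wwox and Nrxn3 led, followed by Immp2l and Sox5 with 12 each, Fhit with 10 and Dlg2 with 9. The 4 long B cell genes with a deep body held 14 deep regions, 15.5 per Mb, with 7 in Aff3, 4 in Ebf1, 2 in Bank1 and 1 in Pax5. The 3 long T cell genes held 17, of which 16 were in Tox and 1 in Camk4. The Ebf1 regions had 1304, 1479, 1145 and 1321 bp in the MUT libraries and 1266, 1187, 1156 and 1199 bp in the WT libraries, so Ebf1, a B cell factor, was listed in every library. The part of B cells in these values was not tested.

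Deep regions went with an open start of their host. In each library, genes whose outer start windows overlapped a peak (between 906 and 953 of 1705 genes with such a window) held 18.6 ± 1.04 deep peaks per Mb, and genes without a peak there held 5.03 ± 0.231 (SD, n = 8 libraries). The difference of 13.6 ± 0.835 per Mb was positive in 8 of 8 libraries (exact sign-flip test, p = 0.00781, adjusted p = 0.0112). Genes whose start was open in all 8 lists held 22.5 deep regions per Mb, those open in some 9.98 and those open in none 5.74. Hosts still included 206 genes with no peak at an outer start, of which Foxp1, Pde4d, Rora, Celf2 and Runx2 held the most deep regions, from 53 to 17, followed by Arhgef3, Frmd4b and Pdzd2 with 16 each. Celf2, Arhgef3, Frmd4b and Pdzd2 were named after their values were seen.

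Deep peaks were slightly denser on the start side of a gene. With each deep body divided at the midpoint of its gene, the 5′ part held 10.8 ± 0.506 peaks per Mb and the 3′ part 9.80 ± 0.513 (SD, n = 8). The difference of 0.983 ± 0.132 per Mb was positive in 8 of 8 libraries (exact sign-flip test, p = 0.00781, adjusted p = 0.0112). Both of these comparisons within genes were added after values had been seen. Deep regions also lay close together, with a median gap of 4634 bp to the nearest consensus region, against 3318 bp for shallow and 5367 bp for desert regions. Those over 50 kb from another region numbered 334, and 43.1% of them had a peak in all 8 lists, against 65.7% of the 1126 within 1 kb of another.

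**Figure D3:**
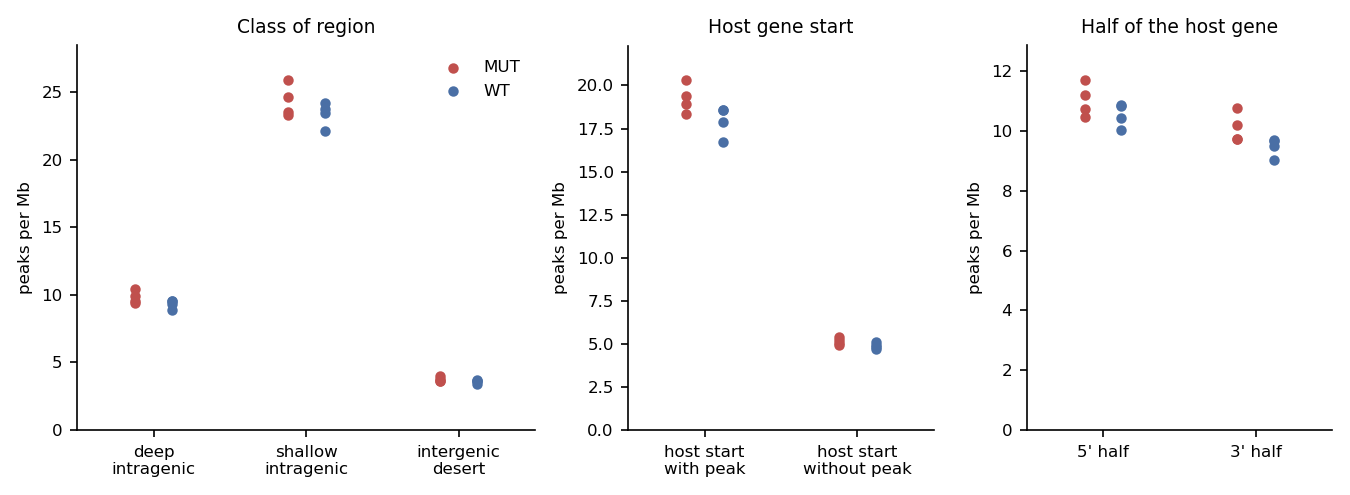
Peaks per Mb (vertical axes, from 0) in each library, 1 point per library, with MUT in red to the left of WT in blue. Deep bodies lie between shallow bodies and deserts in every library, and genes with a peak at the outer start hold more deep peaks per Mb than genes without.

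The comparison of the genotypes asks whether the HSF1 mutation goes with a different set of open sites in resting NK cells. Deep intragenic regions took a slightly larger part of the MUT peaks. They held 7.67, 7.59, 7.69 and 7.66% of the peaks of the MUT libraries and 7.45, 7.44, 7.61 and 7.52% of those of the WT libraries, with 1 WT library (replicate 6) above the lowest MUT library. The means were 7.65 ± 0.0426% in MUT and 7.50 ± 0.0777% in WT (SD, n = 4 each), which did not pass the exact two-sided permutation test (p = 0.0571, adjusted p = 0.0762 over 4 comparisons).

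By summed peak length the genotypes did not overlap. Deep regions held 6.55, 6.62, 6.61 and 6.61% of the peak length in the MUT libraries and 6.32, 6.35, 6.44 and 6.29% in the WT libraries. The means were 6.60 ± 0.0334% in MUT and 6.35 ± 0.0663% in WT (SD, n = 4 each; exact permutation test, p = 0.0286, the smallest it can give, adjusted p = 0.0571). The median score percentile of deep peaks was 45.3, 46.6, 46.2 and 45.4 in the MUT libraries and 43.9, 44.2, 44.1 and 42.8 in the WT libraries, again without overlap (45.9 ± 0.640 in MUT and 43.7 ± 0.653 in WT, SD, n = 4 each; exact permutation test, p = 0.0286, adjusted p = 0.0571). Median widths were 369 ± 8.38 bp in MUT and 362 ± 1.65 bp in WT and overlapped (exact permutation test, p = 0.171, adjusted p = 0.171).

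None of these 4 comparisons passed the adjusted threshold of 0.05, and each of them passed it under at least 1 alternative, given with the dependence on processing. The exact permutation test gives no p under 0.0286. A comparison at this floor passes the adjustment only when others of the 4 reach the floor too. A pass under an alternative can thus come from another measure, and the same holds for the 3 comparisons below. The difference in the share of peaks was 0.150 percentage points, and it was 0.0103 with regions in 4 or more lists (exact permutation test, adjusted p = 0.943) and 0.0839 beyond 100 kb (adjusted p = 0.0571). The median percentile of shallow peaks was 44.0 ± 0.852 in MUT and 43.1 ± 0.333 in WT, and that of desert peaks was 48.5 ± 0.379 in MUT and 46.7 ± 0.766 in WT (SD, n = 4 each). The desert values did not overlap between the genotypes, and neither of these differences was tested. The gap between deep and shallow peaks of the same library was 1.99, 1.39, 2.40 and 1.75 points in the MUT libraries and 1.27, 0.954, 0.629 and -0.279 points in the WT libraries, without overlap. Its means were 1.89 ± 0.425 in MUT and 0.643 ± 0.668 in WT (SD, n = 4 each; exact permutation test, p = 0.0286, adjusted p = 0.0429 over 3 comparisons added after values had been seen).

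Deep peaks per 100 shallow peaks numbered 23.2 ± 0.0344 in MUT and 22.9 ± 0.220 in WT (SD, n = 4 each; exact permutation test, p = 0.0286, adjusted p = 0.0429). The gap to desert peaks was -2.59 ± 0.509 points in MUT and -2.99 ± 0.177 in WT and did not pass (exact permutation test, p = 0.143, adjusted p = 0.143). These 3 comparisons were adjusted apart from the 4 above, and no adjustment over both sets together was made. The call for the gap to shallow peaks was lost without MUT replicate 28 or without WT replicate 5, 6 or 7 (adjusted p from 0.0857 to 0.129). The call for the ratio was lost without any of the 8 libraries except WT replicate 4 (adjusted p of 0.0857).

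**Figure D4:**
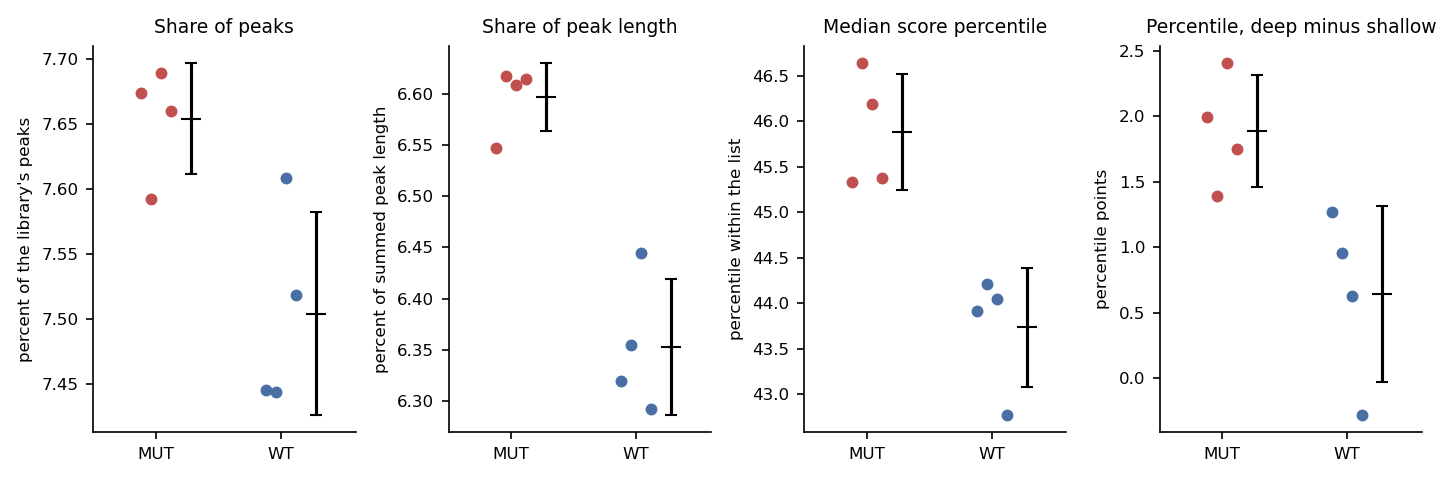
Values of the 4 MUT libraries (red, left) and the 4 WT libraries (blue, right) for deep intragenic peaks, with the mean and SD in black. The panels give the share of peaks and of summed peak length in percent, the median score percentile, and the percentile of deep minus shallow peaks, on axes that do not start at 0. MUT and WT overlap in the share of peaks only.

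A small set of deep regions was listed in 1 genotype only. A peak was present in 4 of 4 MUT and 0 of 4 WT libraries for 41 deep regions (1.01%), where 0.583% of all consensus regions had this pattern. The reverse held for 12 deep regions (0.297%), where 0.178% of all consensus regions did. Intergenic deserts had nearly the same shares as deep regions, 1.01% and 0.299%, and shallow regions 0.705% and 0.173%. A peak absent from a list may still be accessible chromatin below the caller's limit. For 1 region a pattern of 4 against 0 libraries has an exact p of at least 0.0286, so no single region could pass an adjustment over all regions on its listing alone. Patterns of 4 against 3 lists are met more often: 74, 63 and 71 deep regions were MUT-only without MUT replicate 26, MUT replicate 29 and WT replicate 6, and 24 and 19 were WT-only without WT replicate 6 and WT replicate 7.

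Group-only regions were mostly weak. The 41 MUT-only regions had a median score percentile of 25.9 in the lists that held them, with 6 above 50, and the 12 WT-only regions one of 22.7, with none above 50. The median over the 1547 deep regions missing from at least 1 list was 19.8. None lay at an annotated start, where 3.01% of all deep regions did. Pairs shared a host in 6 genes, since Stpg2, Dab1, Sh3rf1, Ttc28, Glis3 and Col23a1 held 2 MUT-only regions each, and Iqsec1 held 1 of either kind.

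The strongest MUT-only region was in Stpg2, a gene of sperm tails, at chr3:139564113-139564689 and 146 kb from the nearest gene end. Its peak spanned 545, 505, 568 and 472 bp in the MUT libraries and was listed in no WT library, and it ranked at the 99.96, 98.9, 99.2 and 99.5 percentile of those 4 lists. It thus stood among the top peaks of each MUT list. A second MUT-only region in Stpg2 lay 8856 bp away, with 375, 297, 204 and 413 bp in the MUT libraries and none in WT.

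Dab1, the adaptor of Reelin signalling, had MUT-only regions at the 77.2 and 63.4 percentile, with 377, 527, 624 and 511 bp and with 491, 319, 556 and 310 bp in the MUT libraries. Sh3rf1, a scaffold of JNK signalling, had one at the 58.7 percentile with 786, 868, 766 and 673 bp, the widest of the set. Rbfox1, an RNA splicing factor gene, had one at the 57.8 percentile with 443, 451, 477 and 382 bp, and Mical3, an actin oxidase gene, one at 53.5 with 465, 500, 320 and 489 bp. All were listed in no WT library. Ttc28, Psd3 and Glis3 followed with percentiles of 47.6, 46.4 and 43.0.

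WT-only regions were led by Tns3, a focal adhesion gene, at the 33.8 percentile with 308, 372, 342 and 310 bp in the WT libraries and no MUT peak. Nos1ap, Hdac9, a histone deacetylase gene, and Ank3 followed at 30.3, 29.9 and 28.7. Itpr2, an IP3 receptor that releases calcium, had 464, 492, 404 and 373 bp in the WT libraries and no MUT peak. Robo1, a Slit receptor, had 864, 208, 480 and 286 bp in the WT libraries and no MUT peak, and this was its only deep region. Its call in the limma test below was lost without any library except WT replicate 5 (adjusted p up to 0.586). The others named by the rule were in Csmd3, Sugct, Ptprm and Hivep3, at percentiles from 15.2 to 23.4. The WT-only regions in Tns3, Itpr2, Csmd3 and Hivep3 lay 146, 118, 143 and 480 bp from another consensus region. The rest of the named WT-only regions lay 8527 bp or more from one. Whether the close ones are sites of their own was not tested.

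**Figure D5:**
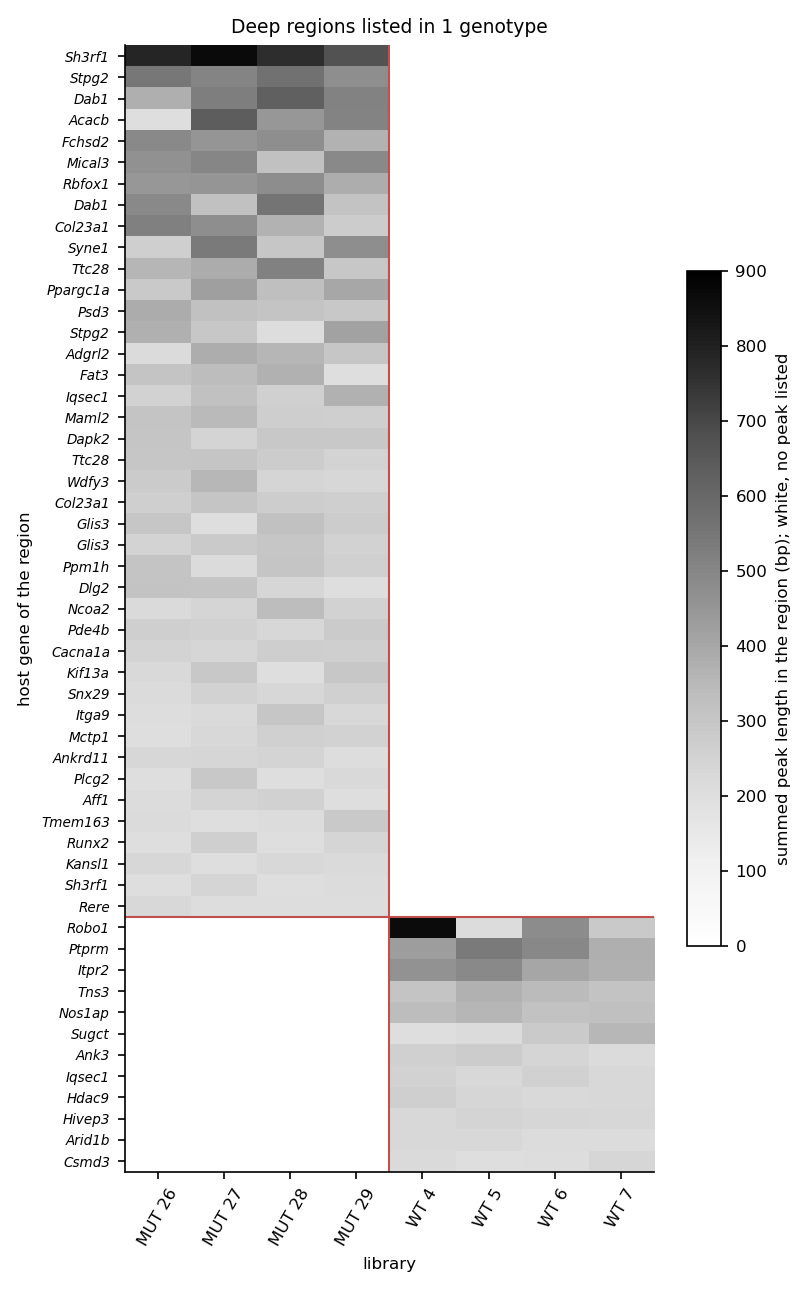
Summed peak length in bp (grey scale, white for no peak listed) of the 53 deep regions listed in 1 genotype only, 1 row per region named by its host gene and 1 column per library. The 41 MUT-only regions stand above the 12 WT-only regions, and Sh3rf1 is the darkest MUT-only row.

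Peak length per region was tested with limma on log2(scaled bp + 200) over all 50044 consensus regions, with Benjamini-Hochberg adjustment. In this test 46 deep regions were higher in MUT (1.14%, where 0.681% of all consensus regions were) and 14 were lower (0.346%, where 0.234% were). The median log2 difference was -0.0025 over deep regions and -0.019 over all. All 53 group-only deep regions passed, and 7 of the 60 calls were other regions, so the test mainly repeats the listing above. Without WT replicate 6 it called 103 deep regions. Among the 2495 deep regions with a peak in every list, 3 were higher (0.120%) and 2 lower (0.0802%). The share over all consensus regions with a peak in every list was not computed. Of the 117 deep regions at annotated starts limma called none, and 12 had an unadjusted p under 0.05. Such a p was given to 495 of all 4042 deep regions and to 5268 of all 50044 consensus regions.

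Those 5 recurrent regions changed in length between the genotypes and were named after their values were seen. Zfp407, a zinc finger gene, had 534, 625, 518 and 484 bp in the MUT libraries and 307, 297, 265 and 274 bp in the WT libraries (log2 difference 0.57 ± 0.048, SE; limma adjusted p = 0.0015). The second Mical3 region had 639, 648, 632 and 553 bp in the MUT libraries and 449, 507, 415 and 432 bp in the WT libraries (limma adjusted p = 0.0203). Ror1, a Wnt5a receptor gene, had 380, 639, 480 and 437 bp in the MUT libraries and 211, 215, 301 and 200 bp in the WT libraries (limma adjusted p = 0.0345). In all 3 regions every MUT value lay above every WT value.

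The 2 lower regions were wider in WT. Mid1, a ubiquitin ligase gene of microtubules on the X chromosome, had 379, 390, 409 and 336 bp in the MUT libraries and 833, 735, 609 and 646 bp in the WT libraries (log2 difference -0.67 ± 0.070, SE; limma adjusted p = 0.0040). Tex14, a germ cell gene, had 751, 756, 761 and 750 bp in the MUT libraries and 1004, 1017, 967 and 980 bp in the WT libraries (log2 difference -0.36 ± 0.038, SE; limma adjusted p = 0.0041). The groups did not overlap in either region. The Mid1 region lay 70 bp and the Zfp407 region 116 bp from another consensus region. Whether these 2 are sites of their own was not tested, and peaks joined or split there would change their lengths. Both Ranbp17 regions, in a gene of the importin family, were also called higher in MUT (limma adjusted p = 0.0409 and 0.0431), with 715, 715, 732 and 716 bp and with 804, 835, 810 and 676 bp in the MUT libraries. Of the WT libraries, replicate 6 alone listed them, with 347 and 377 bp, and without it they become MUT-only regions.

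The peak length of all deep regions of a gene was summed and tested beside the remaining regions of the genes, 9110 gene compartments in all. Of 976 deep bodies, 25 were higher in MUT (2.56%, where 0.988% of all compartments were) and 4 were lower (0.410%, where 0.274% were). The median log2 difference was 0.0046 over deep bodies and -0.021 over all compartments. Of the 25, 7 held a single deep region that was itself MUT-only. Most of the others also held 1 or 2 MUT-only regions, among them Stpg2, Rbfox1, Ttc28, Psd3, Glis3, Sh3rf1, Plcg2, Col23a1 and Dab1. Ror1 and Ranbp17 were among those with none. The higher bodies thus repeat the listing of MUT-only regions in large part. Of the 4 lower bodies, Robo1 held a single WT-only region and the others held none.

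The largest rises by log2 difference were in Ranbp17 (2.49), Stpg2 (2.35), Sh3rf1 (2.32), Dab1 (1.97), Rbfox1 (1.95), Col23a1 (1.87), Fchsd2, an endocytosis gene (1.65), Acacb, an acetyl-CoA carboxylase gene (1.61), Glis3, a zinc finger factor gene (1.49), and Dapk2, a death-associated kinase gene (1.25). Of these, Stpg2, Rbfox1, Fchsd2, Acacb and Dapk2 had no deep peak in any WT library, so their log2 differences depend on the pseudocount and are no bound. Longer sums that rose included Ttc28, with 8085, 8931, 8818 and 7695 bp in the MUT libraries and 5812, 6344, 6015 and 5919 bp in the WT libraries (log2 difference 0.40 ± 0.031, SE; limma adjusted p = 0.0010). Ror1 had 4304, 5815, 4740 and 5012 bp in the MUT libraries and 3471, 3545, 3219 and 3289 bp in the WT libraries (limma adjusted p = 0.0144). In each of these genes the MUT values lay above all WT values. Plcg2, a phospholipase downstream of NK activating receptors, had 2 deep regions. One of them was MUT-only, at the 17.1 percentile, with 200, 293, 200 and 222 bp in the MUT libraries and no WT peak. Its deep body had 747, 812, 743 and 746 bp in the MUT libraries and 522, 506, 529 and 469 bp in the WT libraries (limma adjusted p = 0.0081). The Plcg2 sum includes its MUT-only region, and limma did not call its other deep region. Ror1 and Plcg2 were named after their values were seen. Col23a1, a transmembrane collagen gene, rose with 1845, 2150, 2029 and 2139 bp in the MUT libraries and 518, 216, 732 and 237 bp in the WT libraries (limma adjusted p = 0.0081).

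The 4 deep bodies that fell were Mid1, Dgkg, a diacylglycerol kinase gene, Robo1 and Cobll1. Dgkg had 1471, 1525, 1624 and 1425 bp in the MUT libraries and 1824, 1872, 1794 and 1774 bp in the WT libraries (log2 difference -0.30 ± 0.045, SE; limma adjusted p = 0.0152). Cobll1 had 2723, 2871, 2663 and 2310 bp in the MUT libraries and 3165, 2903, 3162 and 2993 bp in the WT libraries (limma adjusted p = 0.0472), and its call was lost without any library except WT replicate 5 (adjusted p up to 0.199). The call of Dgkg was lost without MUT replicate 26 or WT replicate 4, 5 or 7 (adjusted p up to 0.0514). The Robo1 body lost its call without any library except WT replicates 4 and 5 (adjusted p up to 0.0752), and the Dab1 body without any except WT replicates 4 and 6 (adjusted p up to 0.0878). The Ranbp17 body lost its call without any library except WT replicate 6 (adjusted p up to 0.132) and under 5 other alternatives. The Mid1 body had a log2 difference of 0.61 in the upper 50% of each list (limma adjusted p = 0.574), in place of -0.47, and lost its call under 3 other alternatives.

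Over all 976 deep bodies, limma called 29 and gave 184 an unadjusted p under 0.05. Over all 9110 gene compartments it gave 1227 such a p. The counts of the gene lists are to be read against these. Of 24 lymphocyte transcription factor genes tested with limma, none was called and 5 had an unadjusted p under 0.05, and their median log2 difference was -0.017. Of 43 signalling genes, Plcg2, with its MUT-only region, was called higher, 8 had an unadjusted p under 0.05 and the median was -0.015. Of 18 chromatin regulator genes, none was called by limma and 0 had an unadjusted p under 0.05, with a median of -0.022. The 4 B cell and 2 T cell genes tested with limma had no call and 0 with an unadjusted p under 0.05. Of 33 neuronal and giant genes, Dab1 and Rbfox1 were called higher and Robo1 lower, and 11 had an unadjusted p under 0.05, with a median of -0.036. Runx2, a factor of lymphocytes and bone, had 6992, 7173, 6618 and 5769 bp in the MUT libraries and 5114, 6076, 5512 and 5199 bp in the WT libraries and was not called (limma adjusted p = 0.184).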

How the data were processed

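The deposited files are 8 peak lists, 1 per library and not pooled, each with the position, name and score of every peak. The authors' score is on a scale that the sources used here do not give, and its caller is not given either. Trimmomatic, the aligner Bowtie2 (2.3.4.1), DESeq2 and DiffBind (3.0.12) are named, without their order, per the submitters' processing notes, which also name the build mm10 (GRCm38). How reads were filtered, and whether they were shifted for the transposase, is not given there. With no counts deposited, depth is unknown and no count model was run. The narrowest peak of every list was 200 bp.

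Genes came from a RefSeq table (GRCm38.p6) with 21887 protein-coding genes, and 32851 start windows covered 17492 of them. The sequence of the regions themselves was not used here, as no genome of the build was at hand. Chromosome 18 starts were not analysed here.

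Library values were compared between genotypes by an exact two-sided permutation test (70 assignments) and within libraries by an exact two-sided sign-flip test (256 assignments). Scaled peak length per region and per gene compartment was tested with limma 3.58.1 (trend) on log2(bp + 200), where each library's total was scaled to the median total, for features with a peak in at least 2 libraries. A log2 value understates the change of short features, and printed lengths in bp are not scaled. P-values were adjusted by the Benjamini-Hochberg method in each family of tests, and 0.05 was the threshold. Of 274 gene list entries, 273 matched the table. Each mouse was a separate replicate per the labels, and the replicate numbers are not shared between the genotypes. No paired analysis was possible because the groups share no replicate number.

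Alternatives changed the merging overlap, the number of lists, the distance, the peaks kept, the chromosomes, the pseudocount and scaling, and left out each library in turn. The code was tested on simulated data. Regions were named by fixed rules: the 10 highest ranked and 5 widest regions with a peak in all 8 lists, up to 10 group-only regions and 10 limma calls per direction, the 12 hosts with most regions, the 5 densest hosts, the 5 longest genes without a region, and up to 6 genes per list. The members and the gene lists were chosen with earlier results of these data known. The software was R 4.3.3 and Python 3.11.15 with scipy 1.17.1.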

Additional observations from a re-analysis of the deposited data

Results flagged for a closer look

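In 100 sets of 4 libraries, 8 values stood apart from the other 3 of their genotype by more than Dixon's limit for 4 values, where chance gives about 1 in 20. The share of peak length in MUT replicate 26 was 6.55%, below the other MUT libraries. In Arid1b the deep body had 10235 bp in MUT replicate 27 and 10602 bp in WT replicate 5, each above the other 3 of its genotype. In Nrxn3 it had 7890 bp in MUT replicate 29, below the other 3.

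Ranbp17 gave the other 4 values. Its deep body had 724 bp in WT replicate 6, made up of 377 and 347 bp in its 2 regions, while the other WT libraries listed no peak in either. In the second region MUT replicate 28 had 732 bp, against 715 to 716 bp in the other MUT libraries. The limma calls of both regions were lost without any of 7 of the 8 libraries (highest adjusted p of 0.114 and 0.109) and held without WT replicate 6.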

How the results depend on the processing

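Without 1 library at a time, the genotype difference of the median percentile stayed between 1.71 and 2.69 points, that of the length share between 0.224 and 0.276 percentage points and that of the median width between 4.79 and 11.4 bp, and each passed only without MUT replicate 29 (adjusted p = 0.0381). The gap of deep to shallow peaks differed between genotypes by 0.928 to 1.45 points, the gap to desert peaks by 0.380 to 0.836 points (past the threshold without MUT replicate 26, 27 or 29) and deep peaks per 100 shallow peaks by 0.293 to 0.438. MUT-only regions numbered 50 to 74 (over 1.5 times the 41 without MUT replicate 26 or 29 or WT replicate 6), WT-only regions 12 to 24 (over 1.5 times without WT replicate 6 or 7) and limma region calls 61 to 103 (103 without WT replicate 6), since a pattern of 3 against 4 lists is met more often. The share of regions in every list was 63.6 to 64.7%, and the width of deep minus shallow peaks -0.143 to 1 bp, negative without MUT replicate 27 or 28.

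The genotype differences of the share of peaks, the median percentile and the length share all passed (adjusted p = 0.0381) with regions in 1 or more lists (0.206, 1.79 and 0.273), in the upper 50% of each list (0.452, 3.21 and 0.413), with the same number of peaks (0.193, 1.80 and 0.248) and on autosomes only (0.154, 2.10 and 0.249). That of the share of peaks was 0.0103 with regions in 4 or more lists (adjusted p = 0.943). The genotype difference of median width was -1 bp in the upper 50%. As the exact permutation test gives no p under 0.0286, each pass of a genotype difference needed several measures at this floor together. The gap of deep to shallow peaks between genotypes missed the threshold with regions in 1 or more lists (1.38), beyond 100 kb (1.41) and on autosomes (1.14), and the ratio to shallow peaks with regions in 1 or more lists (0.330) and beyond 100 kb (0.185). The gap to desert peaks passed without predicted genes (0.765) and on autosomes (0.501) and was -0.0465 in the upper 50%.

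Within libraries, the percentile gap to shallow peaks was weaker with the same number of peaks (0.385) and beyond 100 kb (0.332). The width difference to shallow peaks was 3.63 bp beyond 30 kb, -7.81 bp beyond 100 kb, -16.7 bp in the upper 50% and -4.50 bp with the same number of peaks, and that to desert peaks -1, 1.31 and -1.69 bp beyond 30 kb, in the upper 50% and with the same number of peaks. The percentile at starts minus other deep peaks was -1.15 in the upper 50%. The share of regions in all 8 lists was 53.8% with regions in 1 or more lists, 72.7% in 4 or more and 58.6% beyond 100 kb. MUT-only regions fell to 14 beyond 100 kb and WT-only regions to 2 in the upper 50%. limma called 33 regions with 4 or more lists and 26 beyond 100 kb, and 11 deep bodies beyond 100 kb and 17 in the upper 50%. Of the 60 limma region calls, 7 were called again in the upper 50% of each list and 45 with the same number of peaks. The causes were not tested. The Mid1 deep body turned to 0.61 in the upper 50%, and of the other values for named regions and genes 583 kept their call and 96 did not pass. Without counts, a weak site cannot be told from one below the caller's limit.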

Other observations

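Arhgef3, which encodes a guanine exchange factor, was among the hosts with no peak at an outer start. It held 16 deep regions in a deep body of 189 kb, 15 of them with a peak in all 8 lists and 2 at annotated starts. The median score percentile of its regions was 70.5, against 36.3 over all deep regions. The summed peak length was 8690, 9299, 8495 and 7908 bp in the MUT libraries and 8324, 8635, 8586 and 8216 bp in the WT libraries, and the 2 sets overlapped. Arhgef3 was picked after its values were seen, so these values carry no test.

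Score percentile and spacing did not run in parallel among the deep regions. Those within 1 kb of another consensus region had a median percentile of 31.5, those 5 to 20 kb away 42.5 and those over 50 kb away 30.7.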
